A study of Mus musculus with 75 samples.

Results

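Gastrocnemius muscle of untreated tumour hosts was compared between libraries with high and low levels of Fbxo32 and Trim63, a pair of muscle ubiquitin ligase genes whose transcripts are widely used as markers of atrophy. The libraries came from male and female BALB/c mice that received C26 colon carcinoma cells, injected on both sides, then saline as vehicle from day 12, with muscle collected on day 25. The groups were chosen by measured values: each library was scored by the mean of its log2 values for Fbxo32 and Trim63. Libraries above the median score of their own sex were called high, and those at or below it low. This gave 15 C26 saline libraries of 73 with a group, namely 3 high and 4 low females and 4 high and 4 low males. A further female library with a saline title but a 5-fluorouracil treatment label was left out. Comparison groups were 15 libraries of mice that received PBS in place of tumour cells and saline as vehicle, and 43 libraries of C26 hosts given 5-fluorouracil, paclitaxel or cisplatin at 75% of the maximum tolerated dose in 2 cycles. The age in the labels is incomplete, and every library carries the same batch value. No muscle mass or fibre size was used, so high and low are statements about 2 transcripts and not about measured wasting.

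Fbxo32, also called atrogin-1 or MAFbx, is an F-box protein that directs substrates to a cullin ligase, and Trim63, also called MuRF1, is a RING ligase bound to the sarcomere. Both mark proteins with ubiquitin for the proteasome, and both genes are induced in fasting, denervation, glucocorticoid excess and cancer cachexia, largely through FoxO transcription factors. Beside this route, wasting muscle also breaks down organelles and proteins in lysosomes through autophagy, while signalling through the insulin-like growth factor and mTOR pathway sustains protein synthesis. The C26 tumour is a common model of cachexia in which interleukin-6 from tumour and host drives an acute phase response.

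The promoters of these genes can be read beside the split. RefSeq gives a promoter window, 250 bases before to 50 bases after a start site (build GRCm38.p6), for 10433 of the 13856 measured genes, including Trim63 but not Fbxo32. Some genes have several windows, and 13389 windows were searched on both strands. The Trim63 stretch is shown because it holds the 7-letter FoxO match GTAAACA, read on the opposite strand as TGTTTAC and printed in capitals, at chr4:134314901-134314957 on the + strand. The Gabarapl1 and Retreg1 stretches are shown because both genes, described below, were higher in high libraries and hold the STAT match TTCNNNGAA, which reads the same on both strands, at chr6:129532953-129533011 and chr15:25942567-25942625, both on the + strand.
Trim63: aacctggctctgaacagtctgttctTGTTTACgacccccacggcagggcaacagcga
Gabarapl1: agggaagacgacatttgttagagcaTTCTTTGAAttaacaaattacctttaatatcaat
Retreg1: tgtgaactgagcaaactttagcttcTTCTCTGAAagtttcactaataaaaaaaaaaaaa
The FoxO match lay 194 bases before the Trim63 start site and the STAT matches 214 and 87 bases before those of Gabarapl1 and Retreg1. The FoxO letters occurred in 2.57% of all windows searched. Of the 124 genes called higher in high libraries, 94 had a window, and 2 of their 124 windows held these letters (1.61%). Of the 151 genes called lower, 110 had a window, and 1 of their 163 windows held them (0.613%). The STAT letters occurred in 6.84%, 6.45% and 4.29% of the same windows, and another motif, the antioxidant response element TGACNNNGC, in 14.2%, 16.1% and 16.6%. These are counts of letters in short windows and say nothing about binding.

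The scores describe how far apart the groups of each sex lay. Female high libraries scored 9.96, 9.35 and 9.71 (replicates 1, 3 and 6), and female low libraries 7.73, 8.78, 8.24 and 7.90 (replicates 2, 4, 5 and 7). Male high libraries scored 10.57, 11.06, 11.47 and 11.17 (replicates 1, 3, 5 and 6), and male low libraries 9.67, 10.45, 10.14 and 8.80 (replicates 2, 4, 7 and 8). The split was wide in females and narrow in males: the libraries on either side of it scored 9.35 and 8.78 in females, and 10.57 and 10.45 in males. Female low replicate 4 was itself the median library of its sex. The highest PBS library scored 8.19 in females and 8.28 in males, and every high library, every male low library and 2 of 4 female low libraries lay above the PBS libraries of their own sex. The male low group (9.76 ± 0.72, SD, n = 4) lay near the female high group (9.67 ± 0.31, SD, n = 3), so a low male is not equivalent to a low female. These values chose the groups and carry no test.

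**Figure D1:**
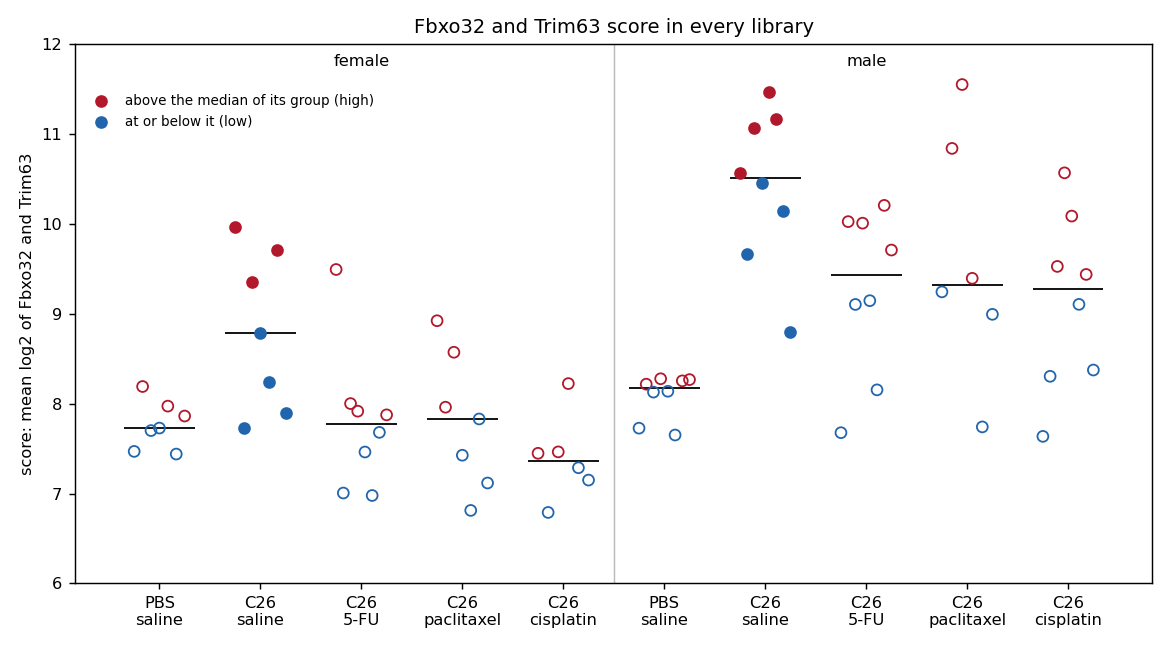
Mean log2 value of Fbxo32 and Trim63 (vertical axis) in each of 73 libraries by sex and group, with a line at each group's median; filled points are the C26 saline libraries compared here, red above and blue at or below the median, and open points are the other groups split the same way. The C26 saline libraries span 7.73 to 9.96 in females and 8.80 to 11.47 in males, while no PBS library exceeds 8.28.

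The libraries held 11.4 to 40.5 M estimated counts. The muscle fibre markers were high in every library, with a summed level of 17.2 to 18.4 on the log2 scale over 13 of 13 listed genes. Of 14 library measures compared between high and low with an exact permutation test within sex (2450 arrangements, two-sided), none had an adjusted p under 0.05. They were read depth (exact p = 0.856), mitochondrial share (exact p = 0.614), the slope of values on transcript GC content (exact p = 0.60), the sum of back-transformed values and the summed markers of 10 cell types. The test adds the female and male differences, so opposite ones cancel and balance within a sex is not shown. Mitochondrial share averaged 7.67% in high against 6.73% in low females, but 7.93% against 10.8% in males. The smallest exact p, 0.00694 (adjusted 0.0971), was for the 2 measured genes of 16 on the B and T cell list, lower in high libraries. No measured marker of any list was at 0 in all C26 saline libraries, and listed genes without values could not be checked. Female low replicate 7 stood apart, with a GC slope of 0.450 against -0.129 to 0.0627 in the other female C26 saline libraries, a mitochondrial share of 1.73% and the lowest depth. In such whole-muscle RNA, fewer cells of a type and less RNA per cell cannot be told apart.

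The first comparison asked which other transcripts moved with the ligases. With sex as a block, 275 of 13854 genes passed an adjusted p of 0.05 in limma (1.98%), 124 higher in high libraries (0.895%) and 151 lower (1.09%). At an unadjusted p under 0.05 there were 2191 genes (15.8%). The 124 rises were modest, with a median log2 difference of 0.59, and the 151 falls were larger, with a median of -0.82, against 0.00 over all genes. All 275 had the same direction in both sexes, which a call with sex as a block largely requires, against 8577 of all 13854 genes. High and low libraries did not overlap in either sex for 68 of the 124 and 81 of the 151, while over all genes this held for 110 higher (0.794%) and 111 lower (0.801%). Because the groups were formed from 2 genes of the same libraries, these p-values concern genes that vary together with Fbxo32 and Trim63, and not a treatment.

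How many genes passed depended on single libraries and on where the split lay. Leaving out 1 library at a time gave 53 to 397 genes. The count was 144 without female replicate 1, 182 without female 5, 53 without female 6, 156 without male 1, 115 without male 4, 74 without male 5, 84 without male 6 and 103 without male 8. Counting the female median library as high gave 87 genes, and splitting by Trim63 alone, which exchanges male replicates 1 and 4, gave 3. Of 57 called genes named by the rule used here, 17 were called in all 15 leave-outs: Npc1, Rassf4, Eif4ebp1, Ctsl, Retreg1, Ube4a, Gabarapl1, Bnip3 and Il6ra among the rises, and Mdga1, Nrep, Kcng4, Pdzd7, Gamt, Foxo6, Igfbp5 and Myoz3 among the falls. Of these 17, 13 were called with the median library counted as high, 9 with the score as a continuous term and 0 with the Trim63 split.

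**Figure D2:**
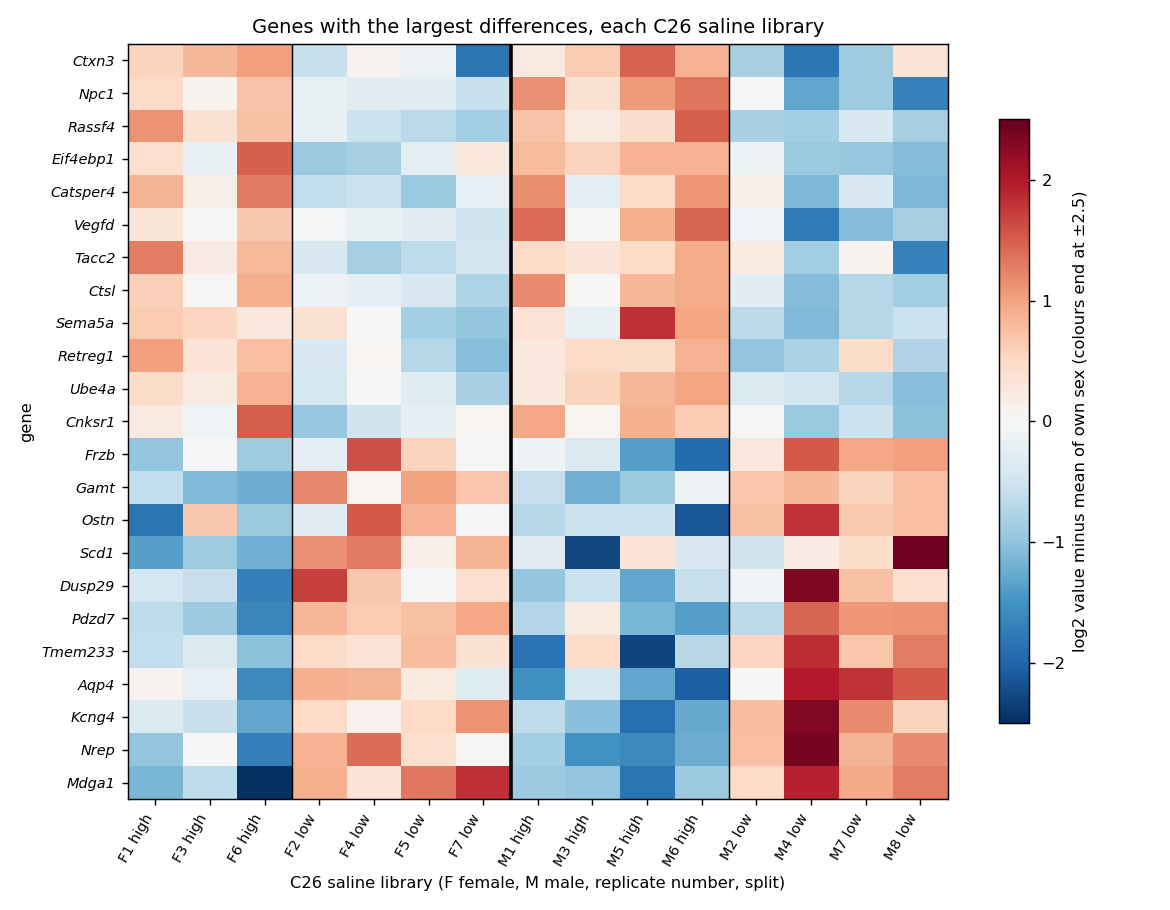
Log2 value of the 12 largest rises and 11 of the 12 largest falls (rows) in each of 15 C26 saline libraries (columns, F female and M male with replicate number), minus the mean of the library's own sex; red is above and blue below that mean. Ctxn3 at the top differed by 1.51 and Mdga1 at the bottom by -2.43 between high and low libraries.

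Lysosomal and autophagy genes were among the largest rises. Ctsl encodes cathepsin L, a lysosomal protease long known as an atrophy gene, and its log2 value was 7.52, 6.94 and 7.82 in female high libraries against 6.78, 6.68, 6.53 and 6.15 in female low ones. In males it was 8.89, 7.73, 8.53 and 8.63 against 7.41, 6.63, 6.98 and 6.83. The groups did not overlap in either sex, and the difference was 1.21 ± 0.19 (log2, SE), with an adjusted p of 0.0066 in limma. Npc1, which exports cholesterol from lysosomes, was 4.57, 4.16 and 4.82 against 3.93, 3.83, 3.84 and 3.55 in females, and 6.54, 5.77, 6.46 and 6.72 against 5.36, 4.09, 4.51 and 3.71 in males. Both sexes were again separated. Npc1 rose by 1.39 ± 0.25 (log2, SE; limma adjusted p = 0.0127), with 0.73 in females and 1.96 in males. In PBS libraries it lay between 3.88 and 4.14, so the female low libraries and male low replicates 4 and 8 were within or below the range without a tumour.

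Gabarapl1, a ubiquitin-like protein of the autophagosome membrane, was 6.81, 6.66 and 6.68 in female high libraries against 5.69, 6.03, 5.72 and 5.58 in low ones, a clear separation. In males it was 6.88, 7.52, 7.33 and 7.04 against 6.64, 6.74, 6.92 and 6.23, where high replicate 1 lay just under low replicate 7. The difference was 0.75 ± 0.13 (log2, SE; limma adjusted p = 0.00771). Bnip3, a receptor for mitophagy, was 8.16, 7.65 and 8.26 against 7.41, 7.54, 6.98 and 6.62 in females, and 8.69, 8.60, 8.96 and 8.93 against 8.16, 7.74, 8.25 and 7.63 in males. High libraries lay above low ones throughout, by 0.87 ± 0.15 (log2, SE; limma adjusted p = 0.00844). Retreg1, a receptor that delivers endoplasmic reticulum to autophagosomes, rose by 1.13 ± 0.21 (log2, SE; limma adjusted p = 0.0156), although male low replicate 7 (9.44) lay above male high replicate 1 (9.25). The adaptor Sqstm1, known as p62, rose by 0.68, but 12 of the 15 leave-outs ended the call (adjusted p up to 0.107).

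The counts on the gene lists below can be read against all genes, of which 0.895% were called higher, 1.09% lower and 15.8% had an unadjusted p under 0.05. Of the autophagy and mitophagy list, 3 of 30 genes rose and 0 fell, with 13 at an unadjusted p under 0.05, all higher, and a median difference of 0.17 against 0.00 over all genes. Among 19 lysosomal genes 2 rose, Ctsl and Atp6v1h, a subunit of the proton pump that acidifies lysosomes, and the median was 0.12. Map1lc3b, the core autophagosome marker LC3B, differed by 0.57 and missed the threshold (limma adjusted p = 0.0557).

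**Figure D3:**
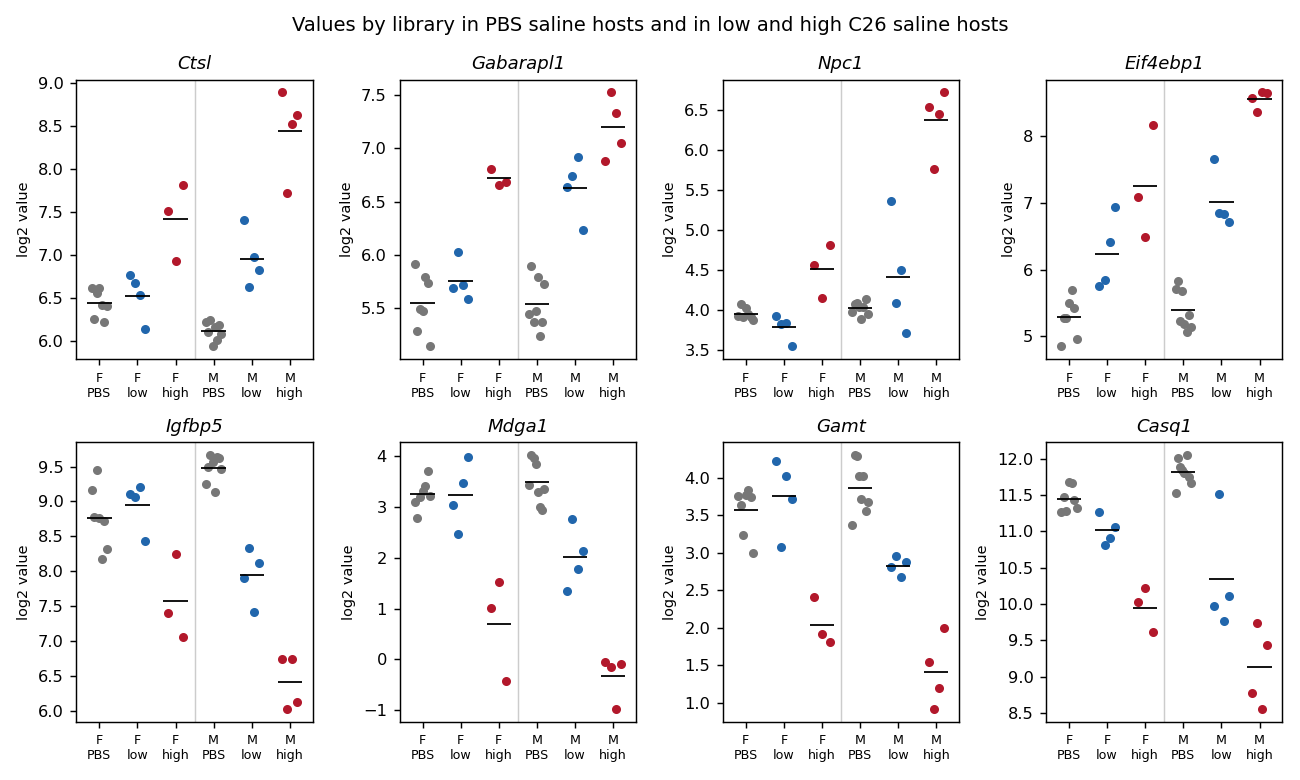
Log2 values (vertical axes) of 8 genes in each PBS saline library (grey) and each low (blue) and high (red) C26 saline library, females left and males right of the grey line, with a bar at each group's mean. Ctsl and Npc1 are higher and Igfbp5, Mdga1, Gamt and Casq1 lower in every high library than in every low library of the same sex.

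Proteasome subunits moved together by small amounts. All 32 had positive differences and 26 had an unadjusted p under 0.05, against 15.8% of all genes in either direction. After adjustment 7 rose: Psma7 and Psmb1 of the catalytic core, and Psmc1, Psmc2, Psmd1, Psmd7 and Psmd11 of the regulatory particle. The median difference was 0.40 against 0.00 over all genes, with 0.23 in females and 0.51 in males. Psmd11, a scaffold of the lid, was 7.23, 6.96 and 7.47 against 6.83, 6.77, 6.93 and 6.86 in females, and 8.01, 7.74, 8.14 and 7.65 against 7.51, 7.01, 7.09 and 6.99 in males. High libraries lay above low ones in both sexes, by only 0.04 between the nearest females, and Psmd11 rose by 0.57 ± 0.12 (log2, SE; limma adjusted p = 0.0233). The ATPase Psmc2 rose by 0.52 ± 0.11 (log2, SE; limma adjusted p = 0.0239), with overlap in females. The number of subunits that rose was 0 without female replicate 6, male 5 or male 8, 1 without male 4 or male 6, 2 without female 1 or male 1, 3 without female 2, male 3 or male 7, 4 without female 4, and 11 without female 3 or female 7. It was also 0 with the median library counted as high and with the score as a continuous term. The number of all genes called higher moved too, against 124 in the main fit. It ran from 21 without female replicate 6 to 190 without female 7. With the median library counted as high it was 42, and with the continuous score 87.

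Other ubiquitin genes moved less evenly. Ube4a, which extends ubiquitin chains, was 6.09, 5.85 and 6.50 against 5.20, 5.63, 5.32 and 4.83 in females, and 6.71, 7.00, 7.28 and 7.43 against 6.09, 5.99, 5.73 and 5.38 in males. The groups were separated in both sexes, and the difference was 1.12 ± 0.16 (log2, SE; limma adjusted p = 0.00347). Of 28 muscle ubiquitin ligases and F-box adaptors other than the score genes, 1 rose, Asb11, by 0.47, and 1 fell, Trim55. The call of Asb11 ended in 9 of 15 leave-outs (limma adjusted p up to 0.0842). Trim55 encodes MuRF2, the close relative of Trim63, and fell by 0.42 ± 0.10 (log2, SE; limma adjusted p = 0.0367), with overlap in males, although 11 leave-outs ended the call (adjusted p up to 0.0971). Among the atrophy ligases that did not pass, Fbxo31 differed by 0.68 (limma adjusted p = 0.0558), Fbxo30 by 0.23, Fbxo21 by 0.06 and Fbxo40 by -0.02. Of 18 ubiquitin and proteasome regulators 2 rose, Nploc4, a cofactor of the segregase p97, and Sqstm1, and the median was 0.25.

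Of the FoxO genes named here, Foxo1 and Foxo3 did not pass the test. Foxo1 differed by 0.17 ± 0.35 and Foxo3 by 0.17 ± 0.18 (log2, SE), with limma adjusted p of 0.884 and 0.712. Foxo6, a family member less studied in muscle, went down: its log2 value was 1.18, 0.77 and 1.03 against 1.52, 3.11, 2.65 and 2.39 in females, and -0.47, 0.09, -0.71 and -0.69 against 0.58, 1.23, 0.60 and 0.94 in males. The groups did not overlap, and Foxo6 fell by 1.35 ± 0.22 (log2, SE; limma adjusted p = 0.00702). Of the 28 measured FoxO and glucocorticoid target genes 2 rose, Eif4ebp1, described below, and Sesn1, and 1 fell, Foxo6, with a median of 0.18. Sesn1, a stress-induced inhibitor of mTORC1, differed by 0.93, but male high replicate 1 (5.12) lay among the low libraries and 13 of 15 leave-outs ended the call (adjusted p up to 0.105). Glucocorticoid-induced Fkbp5 differed by 0.59 (limma adjusted p = 0.115), Klf15 by 0.03 and Ddit4 by 0.93 with an SE of 0.79.

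Eif4ebp1 and Rassf4 were higher and Igfbp5 was lower in high libraries. Eif4ebp1 encodes 4E-BP1, a repressor of translation that acts when mTORC1 is inactive, and was 7.09, 6.49 and 8.17 against 5.76, 5.84, 6.42 and 6.94 in females, and 8.58, 8.36, 8.66 and 8.65 against 7.66, 6.85, 6.84 and 6.71 in males. Female low replicate 7 lay above female high replicate 3, while the males were 0.70 apart at their nearest. Eif4ebp1 rose by 1.30 ± 0.24 (log2, SE; limma adjusted p = 0.0136). Igfbp5, the main insulin-like growth factor binding protein of muscle, was 7.40, 8.25 and 7.06 against 9.11, 9.06, 9.21 and 8.43 in females, and 6.74, 6.03, 6.75 and 6.13 against 7.90, 8.33, 7.42 and 8.12 in males. Igfbp5 was lower in every high library than in any low library of its sex, by 1.46 ± 0.19 (log2, SE; limma adjusted p = 0.00228). Rassf4, a Ras-association domain protein, was 3.68, 2.95 and 3.30 against 2.37, 2.03, 1.89 and 1.71 in females, and 4.95, 4.45, 4.67 and 5.73 against 3.41, 3.35, 3.85 and 3.40 in males. This was a separation by at least 0.58 in both sexes, with a difference of 1.38 ± 0.18 (log2, SE; limma adjusted p = 0.00192).

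The other lists of growth and stress genes held few calls. Of 25 genes of the IGF, insulin and mTOR list, 1 rose and 1 fell, with a median of 0.20. The growth factor Gdf11 was the only called gene of 25 on the myostatin, activin and BMP list and fell by 1.08 (limma adjusted p = 0.0358), which 7 leave-outs ended (adjusted p up to 0.0928). Myostatin itself, Mstn, differed by 0.47 (limma adjusted p = 0.292). In the ATF4 and unfolded protein response list 3 of 28 rose, Vldlr, Ppp1r15a and Xbp1, and the median was 0.27. In the NRF2 and oxidative stress list 2 of 22 rose, including glutathione reductase, Gsr, with 13 higher at an unadjusted p under 0.05 and a median of 0.37. Heat shock proteins had 0 of 19 called and 3 higher at that unadjusted p, with 18 positive and a median of 0.38. Immediate early genes had 0 of 18 called and 5 higher at that unadjusted p, with 17 positive and a median of 0.51. The initiation factor Eif3a was the 1 of 20 translation and ribosome biogenesis genes that rose, and 0 of 49 cytosolic ribosomal proteins passed in either direction, with a median of 0.11 and 2 at an unadjusted p under 0.05. The called genes without a role in these lists included Ctxn3 (1.51), a small membrane protein, the lymphatic growth factor Vegfd (1.27), Tacc2 of the centrosome (1.21), the guidance molecule Sema5a (1.19), the sperm cation channel subunit Catsper4 (1.28) and the scaffold Cnksr1 (1.12). Of the 15 leave-outs, Ctxn3 was called in 12, Catsper4 in 13, Tacc2 in 10, Cnksr1 in 9, Vegfd in 8 and Sema5a in 5. Leave-outs ended the calls of Vldlr, Ppp1r15a, Xbp1, Gsr and Eif3a in 7 to 11 cases each.

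The largest falls were in genes of fibre structure, excitability and energy transfer. Mdga1, a cell surface protein with immunoglobulin domains, was 1.01, 1.52 and -0.43 in female high libraries against 3.03, 2.47, 3.48 and 3.97 in low ones, and -0.06, -0.15, -0.98 and -0.09 against 1.35, 2.76, 1.79 and 2.13 in males. High libraries lay at least 0.95 below low ones, and Mdga1 fell by 2.43 ± 0.30 (log2, SE; limma adjusted p = 0.00192). Nrep, first described in regenerating neurons, was 3.92, 4.91 and 3.20 against 5.79, 6.30, 5.33 and 4.95 in females, and 2.49, 1.82, 1.74 and 2.10 against 4.10, 5.72, 4.19 and 4.53 in males. The females nearly touched and the males were far apart, and Nrep fell by 2.13 ± 0.30 (log2, SE; limma adjusted p = 0.00415). Kcng4, a silent subunit of voltage-gated potassium channels, was 4.30, 4.08 and 3.33 against 5.11, 4.73, 5.13 and 5.76 in females, and 2.95, 2.54, 1.69 and 2.32 against 4.36, 5.89, 4.77 and 4.13 in males. Again no high library reached a low one, and Kcng4 fell by 1.89 ± 0.29 (log2, SE; limma adjusted p = 0.00577).

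Gamt makes creatine in its final step, and was 2.40, 1.91 and 1.81 against 4.23, 3.07, 4.03 and 3.72 in females, and 1.55, 0.92, 1.20 and 1.99 against 2.81, 2.96, 2.68 and 2.88 in males. The groups were separated by at least 0.67, and Gamt fell by 1.56 ± 0.19 (log2, SE; limma adjusted p = 0.00192). Myoz3, a Z-disc protein of fast fibres that binds calcineurin, was 6.38, 7.23 and 6.17 against 7.46, 7.73, 7.80 and 7.74 in females, and 4.91, 5.75, 4.80 and 5.25 against 6.35, 7.93, 6.59 and 6.47 in males. It was lower in all high libraries, by 1.40 ± 0.24 (log2, SE; limma adjusted p = 0.00726). Casq1, the calcium-binding protein of the fast-fibre sarcoplasmic reticulum, was 10.03, 10.22 and 9.62 against 11.27, 10.82, 10.91 and 11.07 in females, and 8.78, 9.74, 8.56 and 9.43 against 9.97, 11.51, 9.77 and 10.11 in males. The male groups were only 0.03 apart at their nearest, and Casq1 fell by 1.14 ± 0.24 (log2, SE; limma adjusted p = 0.0256). The call ended without female replicate 6, male 1 or male 5 (adjusted p up to 0.0739).

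The remaining large falls included Aqp4, the water channel of fast fibres, by -1.89, the membrane protein Tmem233 by -1.71, Pdzd7 by -1.66, the muscle phosphatase Dusp29 by -1.65, the desaturase Scd1 by -1.63, the muscle-derived peptide Ostn by -1.62 and the Wnt antagonist Frzb by -1.54. Of these, Pdzd7 was called in every leave-out, while Scd1 was called in 1 of 15 and Ostn in 4. Male low replicate 4 had the highest value among male C26 saline libraries for several falling genes, including Nrep (5.72), Kcng4 (5.89) and Casq1 (11.51). Without it, Nrep and Kcng4 remained called (the highest adjusted p over all leave-outs was 0.0197 and 0.0221).

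By list, Casq1 was the only called gene of 21 fast-fibre genes, with 6 lower and 0 higher at an unadjusted p under 0.05 and a median of -0.32. The fast myosin Myh4 differed by -0.37 and parvalbumin, Pvalb, by -0.61, neither past the threshold (limma adjusted p = 0.633 and 0.246). Of 16 muscle excitability channels 2 fell, the chloride channel Clcn1 by 0.46 and the sodium pump subunit Atp1b2 by 0.70. The glycolysis and glycogen list had 1 fall of 30, Pgm1, which interconverts glucose phosphates, by 0.94. The muscle NAD and nucleotide enzyme list had 2 falls of 17, including adenylate kinase Ak1, and Nmrk2 of NAD synthesis differed by -1.33 (limma adjusted p = 0.0794). None of 44 nuclear oxidative phosphorylation genes passed in limma (4 lower at an unadjusted p under 0.05, median -0.18). Their median was -0.02 in females, with 21 positive, and -0.34 in males, with 0 positive. Leave-outs ended the calls of Clcn1, Atp1b2, Pgm1 and Ak1 in 2 to 12 cases each.

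Inflammatory genes, which were strongly raised in tumour hosts, differed between high and low mostly within the spread of the libraries. Il6ra, the receptor chain that binds interleukin-6, was 5.64, 5.56 and 6.19 against 4.16, 4.77, 4.34 and 5.06 in females, and 5.78, 6.31, 6.41 and 6.44 against 5.27, 5.15, 5.90 and 4.96 in males. Only male high replicate 1 lay under a low library, and Il6ra rose by 1.05 ± 0.17 (log2, SE; limma adjusted p = 0.00702). Slc39a14, a zinc and iron importer of the acute phase response, rose by 0.94 ± 0.19 (log2, SE; limma adjusted p = 0.0217), with male low replicate 7 (6.64) above male high replicate 3 (6.13), and lost the call without female 6 or male 5 (adjusted p up to 0.0650). Saa1, a serum amyloid of low level in muscle whose reads may be shared with close copies, rose by 1.38 (limma adjusted p = 0.0439), a call that 12 leave-outs ended (adjusted p up to 0.107). Il6ra and Saa1 were the 2 rises among 29 genes listed for interleukin-6, STAT3 and the acute phase, whose median was 0.30, and Slc39a14 was the 1 rise among 12 genes of metallothioneins and zinc transport.

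Lcn2, an iron-carrying acute phase protein, shows the spread. It was 5.33, 2.39 and 6.55 against 3.62, 1.13, 2.04 and 2.79 in females, and 8.74, 6.15, 7.23 and 7.86 against 5.94, 4.16, 6.63 and 5.56 in males. With 1 high library in each sex inside the low range, the difference of 2.13 ± 0.56 (log2, SE) missed the threshold (limma adjusted p = 0.0607). Others that missed it were Mt1 at 1.37 (adjusted p = 0.0762), Mt2 at 1.26 (0.145), Serpina3n at 0.93 (0.13), Stat3 at 0.30 (0.502) and Socs3 at 0.44 (0.83), all from limma. Mt1 and Mt2 overlapped in females only, with male high libraries at least 0.66 and 0.54 above male low ones, while Serpina3n, Stat3 and Socs3 overlapped in both sexes. Mt1, Mt2 and Serpina3n have close copies, and how the authors' counting shared reads between them is not given in the sources used here. Of 9 neutrophil markers 0 passed in limma (2 higher at an unadjusted p under 0.05, median 0.66), and of 18 macrophage markers 0 passed (0 at an unadjusted p under 0.05, median 0.09). The interferon response list leaned the other way, with 0 of 32 called but 10 lower and 0 higher at an unadjusted p under 0.05 and a median of -0.33.

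Set against PBS hosts, 5008 genes differed in the high libraries (36.1%; 2557 higher, 18.5%, and 2451 lower, 17.7%) and 2080 in the low libraries (15%; 1133 higher, 8.18%, and 947 lower, 6.84%) in limma. Both comparisons use the same 15 PBS libraries, and there were 7 high and 8 low libraries. Inflammatory genes were raised in both. Of the IL-6 and acute phase list 23 of 29 rose in high (median 1.96) and 21 in low (median 1.5), and all 9 neutrophil markers rose in both (medians 3.55 and 3.09). Macrophage markers rose in 13 of 18 cases in each (medians 0.99 and 0.85). The part that neutrophils and macrophages in the muscle play in these inflammatory values was not tested. Serpina3n was 4.88 higher in high and 3.95 in low libraries, Mt2 5.77 and 4.51, and Lcn2 6.42 and 4.27.

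Counts and medians of the other lists follow, and no test compared one list with another. Of 32 proteasome subunits 29 rose in high libraries (median 0.48) and 7 in low ones (median 0.13), and of 28 ATF4 and unfolded protein response genes 15 and 4 rose (medians 0.51 and 0.13). Of 44 nuclear oxidative phosphorylation genes 20 fell in high and 1 in low libraries (medians -0.30 and -0.12). Interferon response genes fell in 15 of 32 cases in high and 1 in low libraries (medians -0.44 and -0.10), and cytosolic ribosomal proteins rose in 30 of 49 and 11 cases (medians 0.40 and 0.27). The FoxO and glucocorticoid list had 15 rises of 28 in high and 12 in low libraries (medians 0.91 and 0.34), with Fkbp5 2.92 and 2.31 above PBS and Foxo1 2.09 and 1.91. Of the 124 genes called higher between high and low, 50 were also called between low libraries and PBS, and of the 151 called lower, 104 were, against 2080 of all 13854 genes (15%). The comparisons share the 8 low libraries, so nothing is read from these counts. Npc1 was 1.45 above PBS in high and 0.11 in low libraries (limma adjusted p = 0.653 for the latter), and Gamt -1.99 and -0.42 (adjusted p = 0.0583 for the latter). Nrep and Foxo6, by contrast, were already 1.71 and 1.79 lower than PBS in low libraries.

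**Figure D4:**
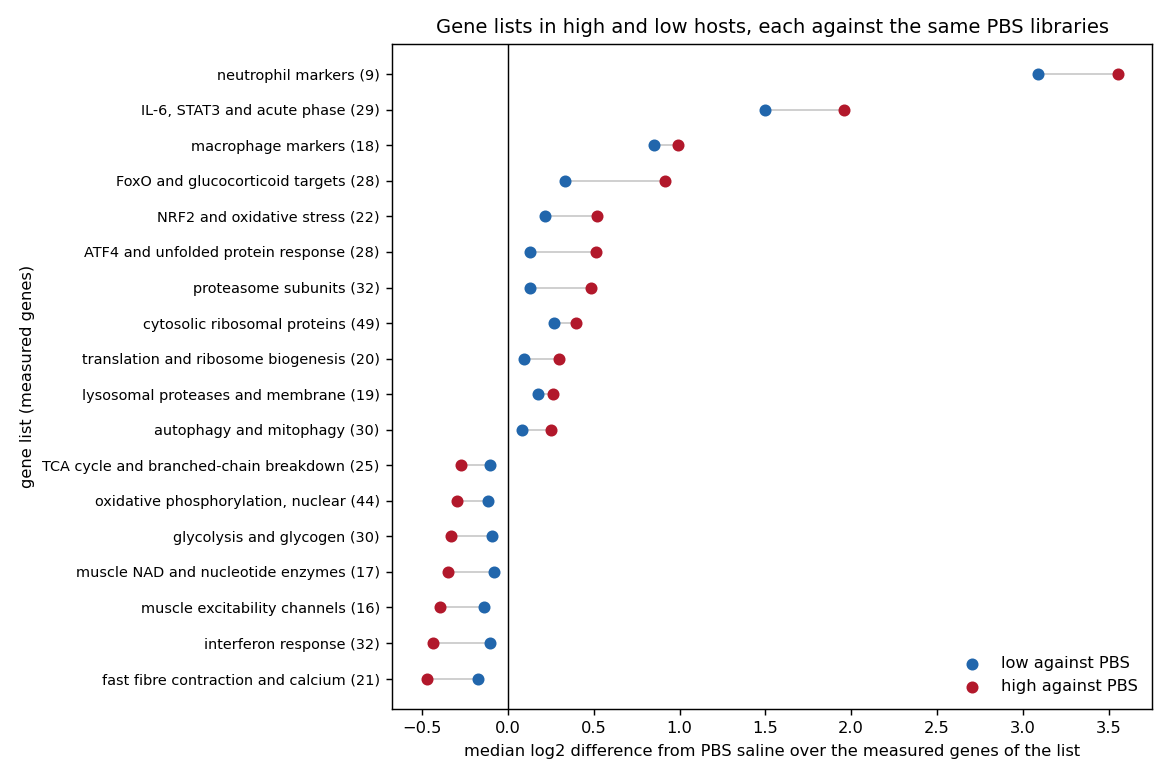
Median log2 difference from PBS saline (horizontal axis) over the measured genes of 18 of 45 gene lists (number in brackets), in low (blue) and high (red) C26 saline libraries; the lists shown were picked after their values were seen, and both points share the same PBS libraries. Neutrophil markers are at 3.55 in high and 3.09 in low libraries, proteasome subunits at 0.48 and 0.13.

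The sexes were then compared for the same split. Within females alone 0 genes passed in limma (903 at an unadjusted p under 0.05, 6.52%), and within males alone 58 did (0.419%; 25 higher and 33 lower). The test of the difference between the sexes itself called 0 genes in limma (478 at an unadjusted p under 0.05, 3.45%), which with 3 or 4 libraries in each group does not show that the sexes were alike. After the predicted gene AC127256.2, the smallest p was for Arhgap24, a GTPase-activating protein for Rac. It was 3.24, 3.27 and 3.15 in female high against 2.91, 2.87, 2.44 and 2.85 in female low libraries, and 2.47, 2.38, 3.14 and 2.85 in male high against 3.46, 3.60, 3.75 and 3.61 in male low libraries. The directions were opposite and neither sex overlapped, with a difference of 0.45 in females and -0.89 in males, but the adjusted p of the sex difference was 0.54 in limma. Slow-fibre genes leaned apart in the same way. The median of 15 slow and type 2A genes was 1.00 in females, with 13 positive, and -1.17 in males, with 1 positive. The slow myosin Myh7 was 9.78, 10.04 and 10.42 in female high against 7.84, 10.24, 8.84 and 9.04 in female low libraries, and 8.39, 7.75, 8.54 and 5.36 in male high against 9.97, 7.54, 9.37 and 9.92 in male low libraries. Both sexes overlapped, and the sex difference of -2.78 had an unadjusted p of 0.0119 and an adjusted p of 1 in limma. In PBS libraries Myh7 ranged from 8.25 to 10.63 in females and from 7.06 to 9.61 in males.

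The 275 genes were then examined in libraries that had no part in calling them. The 43 drug-treated tumour libraries were scored and split at the median of each of their 6 groups in the same way, and 186 genes passed in limma (1.34%; 131 higher, 0.946%, and 55 lower, 0.397%). Of the 124 genes higher in high C26 saline libraries, 10 were called higher here too, which is 8.06% of the 124 and 7.63% of the 131. They were Eif3a, Gnl2, Il6ra, Myf6, Prpf6, Rbm20, Rffl, Sdad1, Slc39a14 and Slc7a6. Il6ra, the receptor chain for interleukin-6, differed by 0.77 ± 0.19 (log2, SE; limma adjusted p = 0.0297), Slc39a14 by 0.57 (adjusted p = 0.0417) and the myogenic factor Myf6 by 0.38 (adjusted p = 0.0221). Of the 151 genes lower in high C26 saline libraries, 0 of the 55 were shared. In direction alone, 117 of the 124 (94.4%) and 125 of the 151 (82.8%) had the same sign, against 49.3% and 50.7% of all genes with that sign. With an unadjusted p under 0.05 as well, 54 of the 124 (43.5%, against 6.54% of all genes) and 15 of the 151 (9.93%, against 5.77%) had the same sign.

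Sizes in the drug-treated hosts are given beside those in the C26 saline libraries. Since the 275 genes were chosen for passing in the C26 saline libraries, their differences there are inflated by that choice, and a smaller size elsewhere is no result about treatment. The median difference of the 124 genes was 0.16 there against 0.59 in C26 saline libraries, and that of the 151 was -0.09 against -0.82. Ctsl differed by 0.27, Bnip3 by 0.21, Mdga1 by -0.19, Gamt by -0.06 and Casq1 by -0.02 in the drug-treated hosts, none past the threshold. Proteasome subunits had a median of 0.09, with 31 of 32 positive and 0 called in limma (5 at an unadjusted p under 0.05). FoxO and glucocorticoid targets had 10 rises of 28 and a median of 0.49. The genes with the smallest p in these libraries were Klhl38, Arrdc3, Sgk1, Slc16a9 and Acvr1b. Foxo3 (0.42), Fkbp5 (0.67), Pdk4 (1.38), Ddit4 (2.08) and Cdkn1a (1.10) rose in drug-treated high libraries with limma adjusted p of 0.0246, 0.027, 0.0129, 0.00691 and 0.0138, while the same genes did not pass in C26 saline libraries. Whether these list and gene differences differ between the untreated and the treated hosts was not tested.

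The overlap with drug-treated hosts moved with the handling of libraries. Of the 43, 14 had a GC slope above 0.1. With the GC slope as a covariate 43 of the 124 and 4 of the 151 were shared, when 614 genes were called higher and 364 lower. With the score as a continuous term 70 and 41 were shared, when 998 were called higher and 735 lower. Without the 14 libraries 1 (Sdad1) and 0 were shared, when 23 genes were called in all. The shared rises were 7.00%, 7.01% and 5.56% of the rises called there, against 7.63% in the main fit. The shared falls were 1.10%, 5.58% and 0% of the falls, against 0%. The same sign held for 110 of the 124 (88.7%) and 92 of the 151 (60.9%) without them, against 49.9% and 50.1% of all genes. In PBS libraries, split the same way between scores of 7.44 and 8.28, 0 genes passed in limma (373 at an unadjusted p under 0.05, 2.69%). Of the 124, 73 (58.9%) had the sign seen in tumour hosts, against 48.3% of all genes. Of the 151, 66 (43.7%) had it, against 51.7% of all genes.

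**Figure D5:**
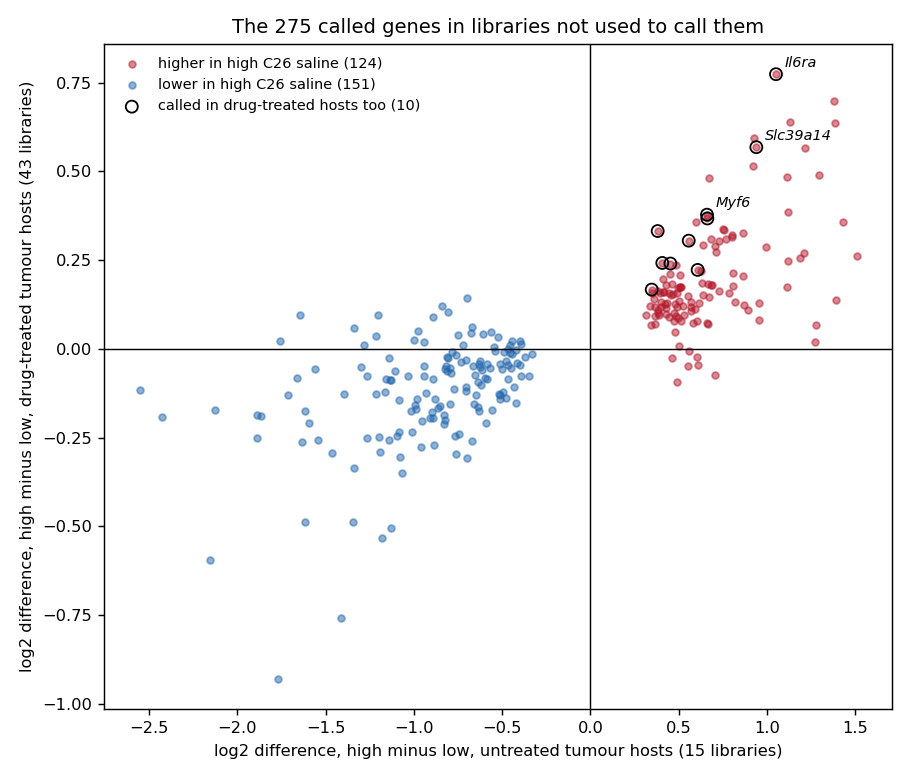
Log2 difference between high and low libraries in 43 drug-treated tumour hosts (vertical axis) against that in 15 untreated tumour hosts (horizontal axis) for the 275 called genes, red for 124 higher and blue for 151 lower; circles mark the 10 genes called in the drug-treated hosts too. The vertical values are smaller than the horizontal ones for most genes, and 117 red and 125 blue points keep their sign.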

How the data were processed

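RNA of mouse gastrocnemius was sequenced as paired reads, per the labels' protocols. The deposited table holds log2 values, 1 per gene and library. Per the submitters' processing notes, the authors used tools that include fastp, Salmon and limma with build GRCm39 (mm39), with no version or role stated, and how genes were filtered and libraries scaled is not stated either. Solving the authors' log2 values for a count plus 0.5 over a library size gave the estimated depths (median 22.9 M, with 85.0 to 90.7% of values within 0.02 of a whole count). Because these counts are estimates, no count test was run.

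The labels list 75 samples, and the file holds 74 columns of values. A female PBS library (replicate 8) was not analysed here. The members, gene lists and rules were chosen with earlier results of these data known.

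All 13854 genes other than Fbxo32 and Trim63 were fitted with limma 3.58.1 in R 4.3.3 (lmFit, eBayes with a trend, two-sided), with sex, or group in the drug-treated hosts, as a block and Benjamini-Hochberg adjustment. Called means an adjusted p under 0.05. The script was tested on simulated data. Named genes were the 12 largest called rises and falls (mean log2 value of 1 or more, no predicted models; 1 of the falls is not reported here), up to 3 called members of each of 45 lists, 34 further measured genes and the 5 smallest p of other comparisons. Named after their values were seen were 4 further proteasome subunits and 6 genes shared with drug-treated hosts. Library measures were tested in Python 3.11.15 with scipy 1.17.1. Alternatives were quantile scaling, a filter at a mean of 1, a pseudocount of 1, GC slope or mitochondrial share as a covariate, quality weights, all groups in 1 fit, a replicate block, other splits and leave-outs. In the drug-treated hosts, removing libraries of GC slope above 0.1 and the continuous score were added after seeing the data, and the first was also run for the comparisons with PBS, within PBS and between sexes. The labels do not say which animals were housed or handled as a set, and the p-values reflect only how these libraries vary. The closest C26 saline pair, female replicates 1 and 3, had a mean chi-square of 22.3 per gene. Transcript GC content came from GENCODE vM21, matched for 99.5% of genes.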

Additional observations from a re-analysis of the deposited data

Results flagged for a closer look

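Of 126 sets of libraries examined for a library far from the others, chance alone would mark about 5%, and 8 were marked. Female C26 saline replicate 7, a low library, had a GC slope of 0.450 against 0.0627 in the next female of that group, and male replicate 7 a mitochondrial share of 17.7% against 10.7% in the next male of that group. For single genes in C26 saline libraries, the highest female log2 value of Fbxo40 was 7.96 in replicate 4, the lowest of Ddit4 was 4.75 in replicate 5, and the highest of Cebpb was 7.96 in replicate 7. Male replicate 4, the low library nearest to the male split, had the lowest values among male C26 saline libraries of Mt2 (6.60) and Stat3 (6.69) and the highest of Pvalb (12.9). Arhgap24 differed in opposite directions in the sexes without overlap in either, with a male minus female difference of -1.35 and an adjusted p of 0.54 for that difference in limma.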

How the results depend on the processing

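Against 275 genes between high and low C26 saline libraries, limma called 319 after quantile scaling, 346 with the filter on low values, 290 with the pseudocount, 768 with GC slope as a covariate, 434 with quality weights, 563 with all groups in 1 fit, 620 with mitochondrial share as a covariate, 275 with Fbxo32 alone, 3 with Trim63 alone and 87 with the median library as high. Fbxo32 alone put the same libraries in high and low as the score did, so that 275 repeats the main fit and is no separate check. The continuous score called 113, 87 higher and 26 lower. All 275 were among those called with either covariate. A replicate block beside sex called 0 (469 at an unadjusted p under 0.05) and turned Scd1 to 0.62. In that fit only replicate 5, low in the female and high in the male, carries the split. Every other number present in both sexes fell on the same side in both. Nothing is read from this fit about the 275 genes. The labels do not say whether same-numbered male and female libraries share more than a number. Their deviations correlated from -0.333 to 0.212 over 7 pairs, 1 above 0.1, and 0 of 7 correlated best with their own number. An effect shared within a number cannot be told apart from the split in these libraries. Leaving out each library gave 53 to 397 for this comparison, 110 to 274 for drug-treated hosts, 4147 to 5375 for high and 1741 to 2165 for low libraries against PBS, and 0 throughout for the sex difference and for PBS libraries. In drug-treated hosts, against 186, GC slope as a covariate called 978, quality weights 425, the continuous score 1733 and the set without libraries of GC slope above 0.1, 23. It called 119 without female 5-fluorouracil replicate 1, 117 without female paclitaxel 1, 122 without male 5-fluorouracil 1, 110 without male cisplatin 2, 119 without male cisplatin 5 and 110 without male paclitaxel 2. Low libraries against PBS gave 3287 with the GC covariate, against 2080. The cause of these shifts was not tested. Depth was 11.4 to 40.5 M estimated counts, and its effect on genes of low level was not tested.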
